A study of Mus musculus with 12 samples.

Results

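The angiopoietin-like genes listed for this account are Angptl1, Angptl2, Angptl4, Angptl6 and Angptl7, each found on the array by the RefSeq accession of its probe. The 5 genes are 5 of the 20144 named genes on the array, and each has 1 probe (A_51_P357647 for Angptl1, A_52_P853177 for Angptl2, A_51_P338443 for Angptl4, A_51_P259571 for Angptl6 and A_51_P220150 for Angptl7). Angptl1 was not well above background on any array, so 4 of the 5 are among the 15217 genes tested. Angptl8, a family gene outside the list, also passed the filter and is given beside them. The members were chosen by an earlier reading of the differences on these same arrays, above all the glomerular difference of Angptl7. Values and calls of the members are therefore descriptions and no independent test of the family.

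The study used mice that carry an inducible Cre (CreERT2, a recombinase switched on by tamoxifen) with both Foxc1 and Foxc2 floxed. These genes encode forkhead transcription factors of the podocyte, the cell that wraps the glomerular capillary. The 12 arrays form 6 groups of 2. The first pair of groups is glomeruli of mice that were 8 weeks old when tamoxifen was injected on 3 days in a row, with glomeruli isolated on day 7, and glomeruli of control mice, whose agent is labelled none. The other pairs are primary podocyte cultures expanded from isolated glomeruli, tamoxifen-treated or mock-treated, for 4 or 7 days. All groups, controls included, share the inducible Cre and the floxed alleles. The number after Foxc for the second floxed allele varies from label to label, and it is read here as Foxc2, as in the title of the series. The age of the control mice and the promoter that drives the Cre are not given in the sources used here. No group received tamoxifen without the floxed alleles, so the drug and the loss of the 2 genes cannot be told apart. The labels number the glomerular samples as mice, but do not say whether cultures with different numbers came from different mice.

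Angiopoietin-like proteins are secreted glycoproteins built, in most members, from a coiled-coil segment and a fibrinogen-like domain. They resemble the angiopoietins but do not bind the angiopoietin receptor Tie2. ANGPTL4 and ANGPTL8 restrain lipoprotein lipase, the enzyme that releases fatty acids from circulating lipoproteins. ANGPTL2 signals through integrins and leukocyte immunoglobulin-like receptors in inflammation, and ANGPTL7 is best known from the cornea and the outflow tissue of the eye. In the glomerulus, ANGPTL4 made by podocytes has been tied to proteinuria in rats.

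Both targeted genes were lower in every tamoxifen array than in every matching control or mock array. In the limma fit Foxc2 passed at an adjusted p under 0.05 in each tamoxifen comparison. Foxc1 passed in none (adjusted p 0.63 in glomeruli, 0.14 at day 4 and 0.057 at day 7). Its log2 differences were -1.86, -7.41 and -9.21 in that order. Each had the pooled standard error of 1.69, to which tamoxifen culture replicates that lay far apart contributed. Foxc1 had log2 signals of 0.92 and 1.09 in tamoxifen glomeruli, against 2.92 and 2.80 in control glomeruli. Foxc2 had log2 signals of -1.12 and -0.19 in tamoxifen glomeruli, against 2.10 and 2.24 in control glomeruli. In the day 4 cultures Foxc1 had -5.78 and -1.74 with tamoxifen, against 3.09 and 4.21 in mock cultures. In the day 7 cultures it had -8.20 and -3.26 with tamoxifen, against 2.62 and 4.33 in mock cultures. On both days Foxc1 was well above background in tamoxifen replicate 2 and not in replicate 1. In the day 7 cultures Foxc2 had -7.80 and -7.37 with tamoxifen, neither well above background, against 1.38 and 1.42 in mock cultures. All log2 signals are relative to the array's own 75th percentile of spot signal, so a value of 0 equals that percentile. Between 57.9% and 63.4% of spots were well above background on each array, no spot was saturated, and the log2 values of replicate arrays correlated at 0.983 to 0.990 across genes. All glomerular arrays lay on 1 slide, all day 4 arrays on another and all day 7 arrays on the last, each with its own scan. Each tamoxifen comparison therefore lies within 1 slide. On the glomerular slide the controls held positions 1 and 2 and the tamoxifen arrays 3 and 4. Treatment and position cannot be told apart there. On both culture slides mock arrays held positions 1 and 3 and tamoxifen arrays 2 and 4. Differences between tissues or days cannot be told apart from slide and scan.

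The stretch just upstream of the transcription start is shown for the 3 listed genes in the sequence table with a detected signal, since FOXC factors bind DNA directly. Among them Angptl7 was called in glomeruli, Angptl2 in day 7 cultures and Angptl6 in no comparison with tamoxifen. Angptl4 is not in that table. Each sequence is the 250 bases before the start, read 5′ to 3′ on the gene's own strand from RefSeq, build GRCm38.p6. Capitals mark only the 4 forms of the forkhead core named below.
Angptl7 (chr4:148500463-148500712, minus strand): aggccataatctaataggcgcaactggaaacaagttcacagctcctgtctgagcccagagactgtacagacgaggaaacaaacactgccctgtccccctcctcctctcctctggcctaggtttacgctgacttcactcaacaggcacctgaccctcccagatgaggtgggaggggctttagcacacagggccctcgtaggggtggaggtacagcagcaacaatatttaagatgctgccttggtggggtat
Angptl2 (chr2:33215711-33215960, plus strand): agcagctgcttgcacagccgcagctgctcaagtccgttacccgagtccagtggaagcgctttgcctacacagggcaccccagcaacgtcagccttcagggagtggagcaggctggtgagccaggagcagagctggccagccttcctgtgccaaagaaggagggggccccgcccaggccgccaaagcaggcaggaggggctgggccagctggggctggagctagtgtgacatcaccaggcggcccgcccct
Angptl6 (chr9:20879711-20879960, minus strand): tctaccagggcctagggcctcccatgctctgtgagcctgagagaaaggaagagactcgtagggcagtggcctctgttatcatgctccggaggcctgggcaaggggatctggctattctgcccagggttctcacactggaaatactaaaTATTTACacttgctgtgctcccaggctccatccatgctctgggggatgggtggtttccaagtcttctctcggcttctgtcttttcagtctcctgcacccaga

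The forkhead core was searched on both strands in 4 forms, and other forms of it were not searched. The form GTAAACA occurs in 3.17% of all promoters in the table, the form GTAAATA in 2.73%, the form ATAAACA in 4.16% and the form ATAAATA in 5.17%. Of the promoters of the 5 family genes in the table (Angptl1, Angptl2, Angptl6, Angptl7 and Angptl8), the one match was GTAAATA on the opposite strand of Angptl6, from 102 to 96 bases upstream of the start. Any of the 4 forms occurs in 13.6% of all 32851 promoters in windows of the same length. The consensus estrogen response element, searched because tamoxifen binds estrogen receptors, occurs in 0.0639% of those promoters and in none of the 5. The G and C content of the windows was 66.8% for Angptl2, against 54.4% for Angptl7 and 54.8% for Angptl6. A window without these letters says nothing about other forms of the core in it or about binding elsewhere. Angptl7 lies wholly inside Mtor, Angptl2 inside Ralgps1, Angptl1 inside Ralgps2 and Angptl8 inside Dock6, and Angptl6 overlaps Shfl.

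Angptl7 was the member with the largest difference in glomeruli. It had log2 signals of 2.22 and 0.02 in tamoxifen glomeruli, against -2.78 and -3.63 in control glomeruli, all 4 well above background. The groups did not overlap, and the 2 tamoxifen arrays were 2.20 apart. The difference was 4.32 on the log2 scale (SE 0.69, 95% interval 2.72 to 5.93), a 20.0-fold higher signal, with an adjusted p of 0.028 in the limma fit over all genes. It was the second highest rise by size among the 15217 genes. In this comparison 2.64% of all genes were called at an adjusted p under 0.05, and Angptl7 was the 1 called member of the 4 tested. Because the rule rests on this comparison, nothing is read from that share. Without the higher tamoxifen array the difference was 3.22 (adjusted p 0.075), and without control replicate 1 or 2 it was 4.75 (0.073) or 3.90 (0.065). The adjusted p was also above 0.05 without either day 4 tamoxifen array (0.059), either day 4 mock array (0.052) or either day 7 mock array (0.051), which leave the difference as it is and change the pooled spread. It was below 0.05 without tamoxifen replicate 2 (0.0065) or either day 7 tamoxifen array (0.049).

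In cultures Angptl7 was near the limit of the array. At day 4 it had log2 signals of -5.60 and -5.25 with tamoxifen, both not well above background, against -4.88 and -4.08 in mock cultures. The measured values did not overlap, with a difference of -0.94 (SE 0.69, 95% interval -2.55 to 0.66, adjusted p 0.72) that rests on signal not well above background. At day 7 it had -6.26, not well above background, and -5.23 with tamoxifen, against -4.55 and -4.34 in mock cultures. The difference there was -1.30 (SE 0.69, adjusted p 0.52), so it did not pass the test in either culture comparison. The glomerular difference minus the mean of both culture differences was 5.44 for Angptl7 (SE 0.85, adjusted p 0.037), in a contrast that called 1.09% of all genes. Of the 4 tested members Angptl7 and Angptl2 were called in it. The Angptl7 call held without tamoxifen glomeruli replicate 2 and was lost without any other single array, with adjusted p of 0.055 to 0.090 there. With normexp background correction the contrast was 2.94 (adjusted p 0.18), and the day 4 difference was 1.07 (adjusted p 0.18) and so turned its sign.

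**Figure D1:**
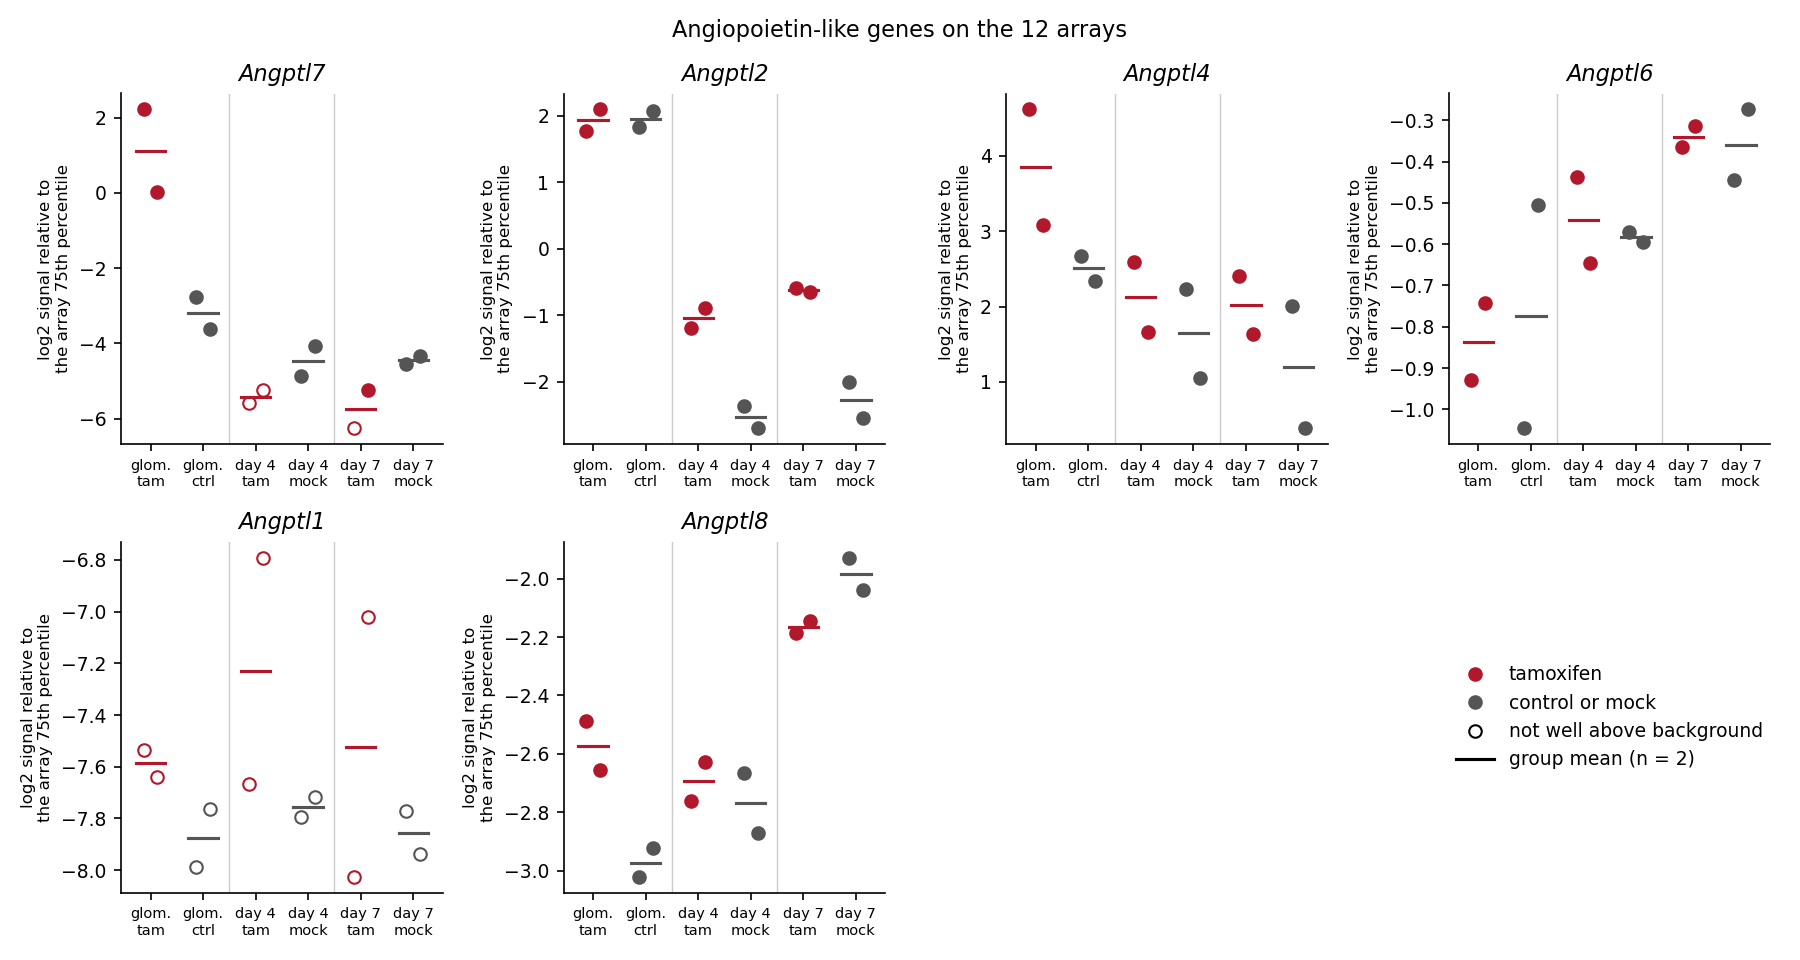
Log2 signal of 6 angiopoietin-like genes relative to each array's 75th percentile, by group, with tamoxifen in red to the left of its control or mock group in grey. Points are arrays (n = 2 a group), open points are not well above background, lines are group means, and each panel has its own vertical scale. Angptl7 separates in glomeruli, at 2.22 and 0.02 against -2.78 and -3.63, and Angptl2 separates in both culture comparisons.

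Angptl2, the integrin and immunoglobulin-like receptor ligand, showed the opposite arrangement, with overlapping groups in glomeruli and a higher signal in treated cultures. In glomeruli it had 1.78 and 2.10 with tamoxifen, against 1.83 and 2.07 in controls, and the groups overlapped. The difference was -0.01 (95% interval -0.52 to 0.50, adjusted p 0.99), and 0.037 with median scaling. At day 4 it had -1.19 and -0.89 in tamoxifen cultures, against -2.36 and -2.70 in mock cultures. At day 7 it had -0.59 and -0.65 in tamoxifen cultures, against -2.01 and -2.55 in mock cultures. Both treated arrays were above both mock arrays on each day.

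The Angptl2 difference was 1.49 at day 4 (SE 0.22, 2.81-fold, adjusted p of 0.054) and 1.66 on day 7 (SE 0.22, 3.16-fold, with 0.023). It was thus called at day 7, where 0.979% of all genes were called, and was the 1 called member of the 4 tested. At day 4, where 0.21% of all genes were called, none of the 4 was called, and Angptl2 was the 1 with an unadjusted p under 0.05, as had 1668 of the 15217 genes. The day 7 difference minus the day 4 difference was 0.17 (95% interval -0.55 to 0.89), in a contrast that called 0% of genes, so the 2 days are not shown to differ. Leaving out day 7 tamoxifen replicate 1 or 2 or day 7 mock replicate 2 ended the day 7 call, with adjusted p of 0.15, 0.11 and 0.12. Leaving out either day 7 mock array gave a call at day 4 (adjusted p 0.031). The glomerular minus the mean culture difference was -1.59 for Angptl2 (SE 0.27, adjusted p 0.045). That call held without tamoxifen glomeruli replicate 2 or day 7 mock replicate 1 and was lost without any other single array, with adjusted p of 0.067 to 0.13 there.

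Angptl4, the lipoprotein lipase inhibitor induced by PPARs, hypoxia and glucocorticoids, was detected on all 12 arrays. It had log2 signals of 4.62 and 3.08 in tamoxifen glomeruli, against 2.68 and 2.34 in control glomeruli. Both tamoxifen arrays were higher, but they differed from each other by 1.54. The difference of 1.34 (SE 0.72, 95% interval -0.32 to 2.99) did not pass the test (adjusted p 0.38). Without tamoxifen replicate 1 or 2 it was 0.57 or 2.11. At day 4 Angptl4 had 2.59 and 1.66 in tamoxifen cultures, against 2.24 and 1.05 in mock cultures. At day 7 it had 2.40 and 1.64 in tamoxifen cultures, against 2.01 and 0.38 in mock cultures. The culture groups overlapped on both days, with differences of 0.48 in day 4 cultures (SE 0.72, adjusted p 0.89) and 0.82 in day 7 cultures (SE 0.72, adjusted p 0.74). The day 7 difference ranged from 0.011, without mock replicate 2, to 1.64, without mock replicate 1.

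Replicate 1 had the higher Angptl4 signal in all 6 groups, by 0.33 to 1.63 on the log2 scale. These gaps between replicates set the standard error of 0.72 for Angptl4, against 0.18 for Angptl6.

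Angptl6, a growth factor of the family made largely by the liver, varied least of the detected members. It had -0.93 and -0.74 in tamoxifen glomeruli, against -1.05 and -0.50 in control glomeruli. Across the 8 culture arrays it stayed between -0.64 and -0.27. The tamoxifen differences were -0.06 in glomeruli (95% interval -0.48 to 0.36), 0.04 at day 4 (-0.38 to 0.46) and 0.02 at day 7 (-0.40 to 0.44). None passed the test, and the groups overlapped in each.

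Angptl1, known as an inhibitor of blood vessel growth, had log2 signals of -8.03 to -6.79 over the 12 arrays, none well above background. The lowest signal well above background on an array was between -6.21 and -5.48. No difference is given for it, since every group was below the limit.

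Outside the list, Angptl8, a lipase regulator of the family that lacks the fibrinogen-like domain, had -2.49 and -2.65 in tamoxifen glomeruli, against -3.02 and -2.92 in control glomeruli. Its differences were 0.40 in glomeruli (SE 0.12, adjusted p 0.12), 0.07 at day 4 and -0.18 at day 7, none of which passed the test.

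**Figure D2:**
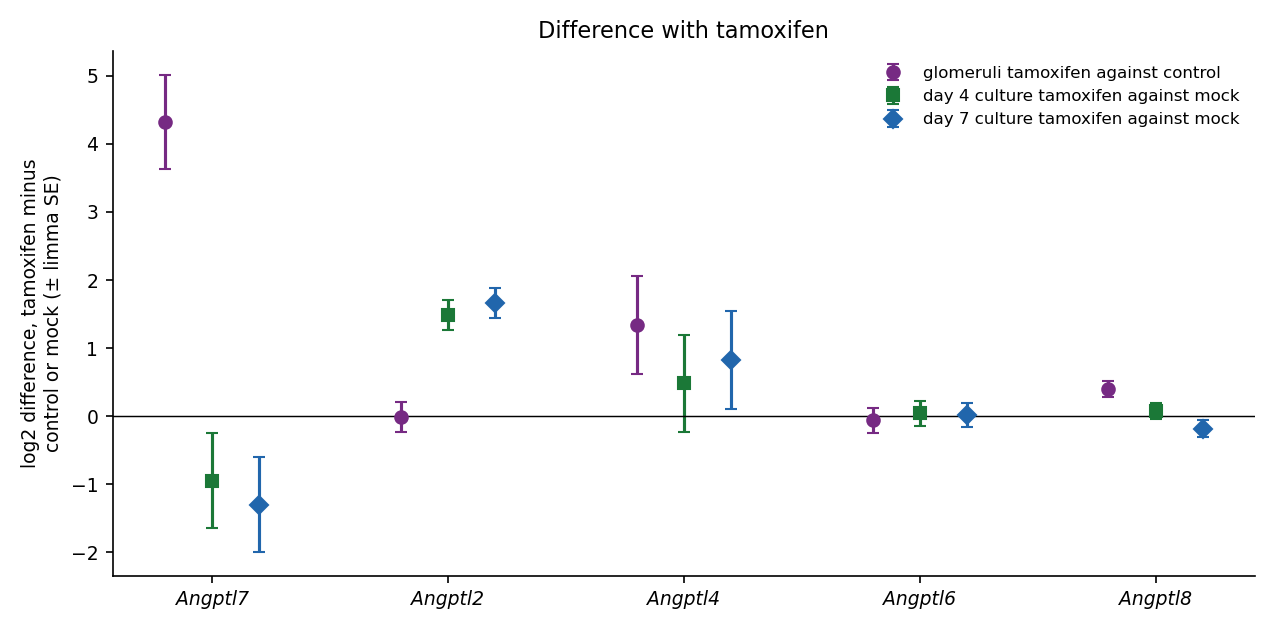
Log2 difference, tamoxifen minus control or mock, for 5 tested family genes in glomeruli (circles), day 4 cultures (squares) and day 7 cultures (diamonds), with bars of 1 standard error of the limma fit. Angptl7 lies at 4.32 in glomeruli and below 0 in cultures, and Angptl2 lies at -0.01 in glomeruli, 1.49 at day 4 and 1.66 at day 7.

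Groups of tamoxifen and control arrays that do not overlap were common on this array. In glomeruli 2 of the 4 tested members had groups that did not overlap, both higher, against 47.8% of all genes in either direction. At day 4 the count was 2 of 4, Angptl2 higher and Angptl7 lower, against 50.5% of all genes. At day 7 it was again 2 of 4, the same genes in the same directions, against 41.3%. The members' shares are near the background.

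Marker levels of other cells moved between the glomerular arrays. The 17 tested tubule markers had summed signals of 176 and 115 times the array's 75th percentile in tamoxifen glomeruli, against 71.0 and 78.3 in control glomeruli. Their median difference was 1.20, 15 of 17 were higher, and Slc22a6 (1.65, adjusted p 0.015) and Slc12a1 (1.48, adjusted p 0.031), which are tubular transporters, passed the test. The 16 podocyte markers summed to 347 and 481 in tamoxifen glomeruli, against 538 and 702 in control glomeruli, and 15 of 16 were lower. Synpo, an actin-associated protein of the podocyte foot process, fell by 1.32 (adjusted p 0.037), and Thsd7a, a podocyte surface protein, fell by 1.00 (adjusted p 0.017). Tamoxifen replicate 1, the array with the higher Angptl7 and Angptl4, also had the higher tubule sum and the lower podocyte sum. Red cell markers summed to 0.769 and 6.26 in tamoxifen glomeruli, against 72.7 and 33.2 in control glomeruli. All 14 mural markers had a higher mean in tamoxifen glomeruli (median 0.41), and Acta2, smooth muscle actin, was 2.15-fold higher (adjusted p 0.016). Of the 11 immune markers 10 were lower, and Ms4a1, the B cell antigen CD20, fell by 1.94 (adjusted p 0.023). The part of these markers in the family's differences was not tested. In glomerular RNA, fewer cells of a type and less RNA per cell cannot be told apart.

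**Figure D3:**
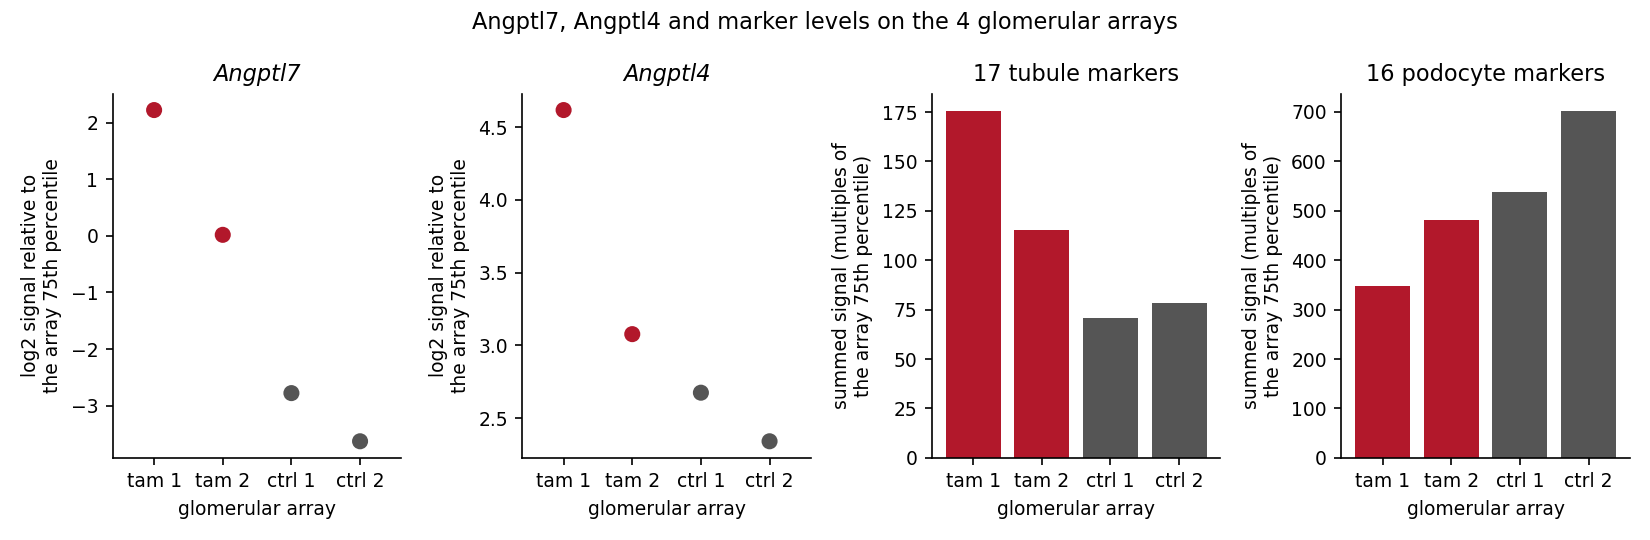
The 4 glomerular arrays, tamoxifen in red left of control in grey. Log2 signals of Angptl7 and Angptl4 are points, and summed signals of 17 tubule and 16 podocyte markers are bars in multiples of the array's 75th percentile. Tamoxifen replicate 1 had the highest Angptl7 (2.22), Angptl4 (4.62) and tubule sum (176) and the lowest podocyte sum (347).

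In the cultures the tubule markers gave sums of 0.889 to 1.25, with 6 to 10 of 17 well above background. Endothelial markers summed to 8.11 to 15.9, against 195 to 282 in glomeruli. The summed podocyte markers were 89.0 to 107 in tamoxifen cultures, against 103 to 115 in mock cultures, all 16 well above background on every array. Of the 16, 11 were lower at day 4 and 12 at day 7, with a median difference of -0.42 on each day. None was called at day 4, and 1 was called lower at day 7. Mural markers summed to 617 to 686 in tamoxifen cultures, against 472 to 566 in mock cultures. Acta2, Tagln and Cnn1, named after their values were seen, made up most of each sum. On each day 8 of 14 were higher, with median differences of 0.13 at day 4 and 0.05 at day 7. Rgs5, a pericyte regulator of G protein signalling, fell by 2.82 at day 7 (adjusted p 0.014). Parietal markers summed to 45.6 to 47.7 in tamoxifen cultures, against 20.9 to 31.0 in mock cultures, and most of each sum was Ncam1, named after its values were seen. Of the 9 parietal markers 8 were higher at day 4 and 7 at day 7, none called higher, while Cldn1, a tight junction protein, fell by 1.95 at day 7 (adjusted p 0.031). Adipoq, the adipocyte hormone adiponectin, was not well above background in mock cultures and was at least 3.86-fold higher with tamoxifen in day 4 cultures (adjusted p 0.043). That bound sets the treated mean against the higher of the lowest signal well above background and the dim probe's own. In day 7 cultures it was at least 7.93-fold higher (adjusted p 0.016), and it was the 1 of 5 tested adipocyte markers called. On each day 2 of the 5 were higher and 3 lower. The summed adipocyte signal was 6.09 to 7.47 in tamoxifen cultures, against 7.19 to 10.6 in mock cultures. The part of these markers in the Angptl2 difference was not tested.

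Mock cultures were set against control glomeruli to place the members' basal levels. Angptl2 had -2.36 and -2.70 in day 4 mock cultures and -2.01 and -2.55 in day 7 mock cultures, against 1.83 and 2.07 in control glomeruli. The difference was -4.36 (SE 0.19, adjusted p 9.4e-07), a 20.5-fold lower signal. Angptl2 was the 1 called member of the 4 tested, in a comparison that called 63.7% of all genes. Angptl4 differed by -1.09 (adjusted p 0.16), Angptl7 by -1.26 (0.099) and Angptl6 by 0.30 (0.12), none past the threshold, against a median of 0.18 over all genes. With median scaling Angptl6 passed it, at 0.54 (0.031), and with a replicate block Angptl4 passed it (0.0093). Outside the list, Angptl8 was 0.60 higher in mock cultures (adjusted p 0.0013), a call that was lost with normexp (adjusted p 0.080). Of the 16 podocyte markers 15 were lower in mock cultures, 13 of them called, with a median difference of -2.86. Wt1, a podocyte transcription factor, differed by -0.67 and was named after its value was seen. The cultures thus kept podocyte markers at detectable levels, most of them lower than in glomeruli. Mural markers summed to 472 to 566 in mock cultures, against 63.9 to 119 in control glomeruli, although 10 of 14 were lower (median -1.36). Between mock cultures at day 7 and day 4 no listed member was called, in a comparison that called 0.0329% of all genes, and the 4 differences ran from -0.45 for Angptl4 to 0.25 for Angptl2.

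Within each gene, the order of group means differed. Angptl7 ran from tamoxifen glomeruli (1.12 ± 1.56) and control glomeruli (-3.20 ± 0.60) to day 7 mock (-4.45 ± 0.15), day 4 mock (-4.48 ± 0.57), day 4 tamoxifen (-5.42 ± 0.25) and day 7 tamoxifen cultures (-5.74 ± 0.73; SD, n = 2 each). The mock groups lay within their spread of each other, as did the treated culture groups. Angptl2 ran from control glomeruli (1.95 ± 0.17) and tamoxifen glomeruli (1.94 ± 0.22), which lay within their spread, to day 7 tamoxifen (-0.62 ± 0.04), day 4 tamoxifen (-1.04 ± 0.21), day 7 mock (-2.28 ± 0.38) and day 4 mock cultures (-2.53 ± 0.24). The mock groups of Angptl2 overlapped, while the treated groups did not. Angptl4 ran from tamoxifen glomeruli (3.85 ± 1.09) through control glomeruli (2.51 ± 0.24) to day 4 tamoxifen (2.13 ± 0.66), day 7 tamoxifen (2.02 ± 0.54), day 4 mock (1.64 ± 0.84) and day 7 mock cultures (1.20 ± 1.15), and its 4 culture groups all overlapped. Angptl6 ran from day 7 tamoxifen cultures (-0.34 ± 0.04) to tamoxifen glomeruli (-0.84 ± 0.13), with overlap between neighbours at both ends.

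The genes whose signal was most like each member's over the 12 arrays were found by Pearson's r, with no test, since the arrays fall into 2 tissues. For Angptl7 they were Slc25a42 (0.974), Tcea3 (0.972) and Hadh (0.972), with r of 0.82, 0.57 and 0.71 within the 8 culture arrays alone. For Angptl2 they were Hs3st6 (0.991), Arhgef3 (0.989) and Pde2a (0.989), with 0.958, 0.989 and 0.993 within cultures. For Angptl4 they were Nat8l (0.950), Nrxn3 (0.948) and Rnf128 (0.944), and for Angptl6 Emc3 (0.948), Trappc4 (0.941) and Gpatch4 (0.937).

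Genes around the family were read in lists. PPARs are fatty acid-sensing nuclear receptors that induce Angptl4, and of 23 tested PPAR targets 21 had a higher mean in tamoxifen glomeruli, with a median difference of 0.64 against -0.05 over all genes. Of these, 2 rose in the test, Plin5, a lipid droplet protein (2.37, adjusted p 0.0496), and Cyp4a10, a fatty acid hydroxylase (1.58, adjusted p 0.045). The count was 7 without tamoxifen glomeruli replicate 2, 1 without control replicate 2 and 0 without any other single array. In cultures 12 of 23 were higher at day 4 and 11 of 23 at day 7, none called, and Pdk4, a kinase that shuts down glucose oxidation, differed by -1.40 and -1.74. Tubule cells also express many PPAR targets, and the part of the tubule sums above in these counts was not tested.

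Hypoxia-inducible genes, mostly of glycolysis and oxygen supply, respond to low oxygen as Angptl4 does. In glomeruli 11 of 16 were higher with a median of 0.19, none called. In cultures 14 of 16 were higher at day 4 and 15 of 16 at day 7, with medians of 0.53 and 0.63 against 0.02 and 0.00 over all genes. Of them Pfkfb4, a glycolytic regulator, was called at day 7 (1.33, adjusted p 0.021), a call lost without either day 7 tamoxifen array or mock replicate 2, and none was called at day 4. Glucocorticoid-responsive genes were lower in 9 of 12 at both culture times, with medians of -0.72 and -0.88. None was called, and Tsc22d3, the glucocorticoid-induced leucine zipper, differed by -2.05 and -2.09 (adjusted p 0.26 and 0.19). In glomeruli 9 of 12 of the same genes were higher, none called. Of the 8 transcription factors known to act on Angptl4 none was called in any tamoxifen comparison. Among them Ppara differed by 0.66 in glomeruli, and Pparg by -0.97 and -0.92 in day 4 and day 7 cultures.

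Of the 11 tested genes of lipase handling, Apoc3, an apolipoprotein that slows lipoprotein clearance, rose by 1.67 in tamoxifen glomeruli (adjusted p 0.025). The call was lost without tamoxifen glomeruli replicate 1, any of the day 4 arrays or either day 7 tamoxifen array. No other of them was called in any tamoxifen comparison. Lpl, the lipase that ANGPTL4 inhibits, had differences of 0.93 at day 4 and 1.11 at day 7 (adjusted p 0.69 and 0.55). Among the reported receptors and binding partners, 0 of 11 had a higher mean in tamoxifen glomeruli (median -0.23) and none was called there. The largest difference was -1.36 for Pirb, the mouse ANGPTL2 receptor (adjusted p 0.68). In cultures 8 of 11 were lower on each day, none called, and Itgb3, an integrin subunit, differed by -1.37 and -1.65. Of 6 tested proteases that cleave family members none was called, with Bmp1 at 1.23 and 1.33 in day 4 and day 7 cultures and Furin at 0.15 in glomeruli.

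**Figure D4:**
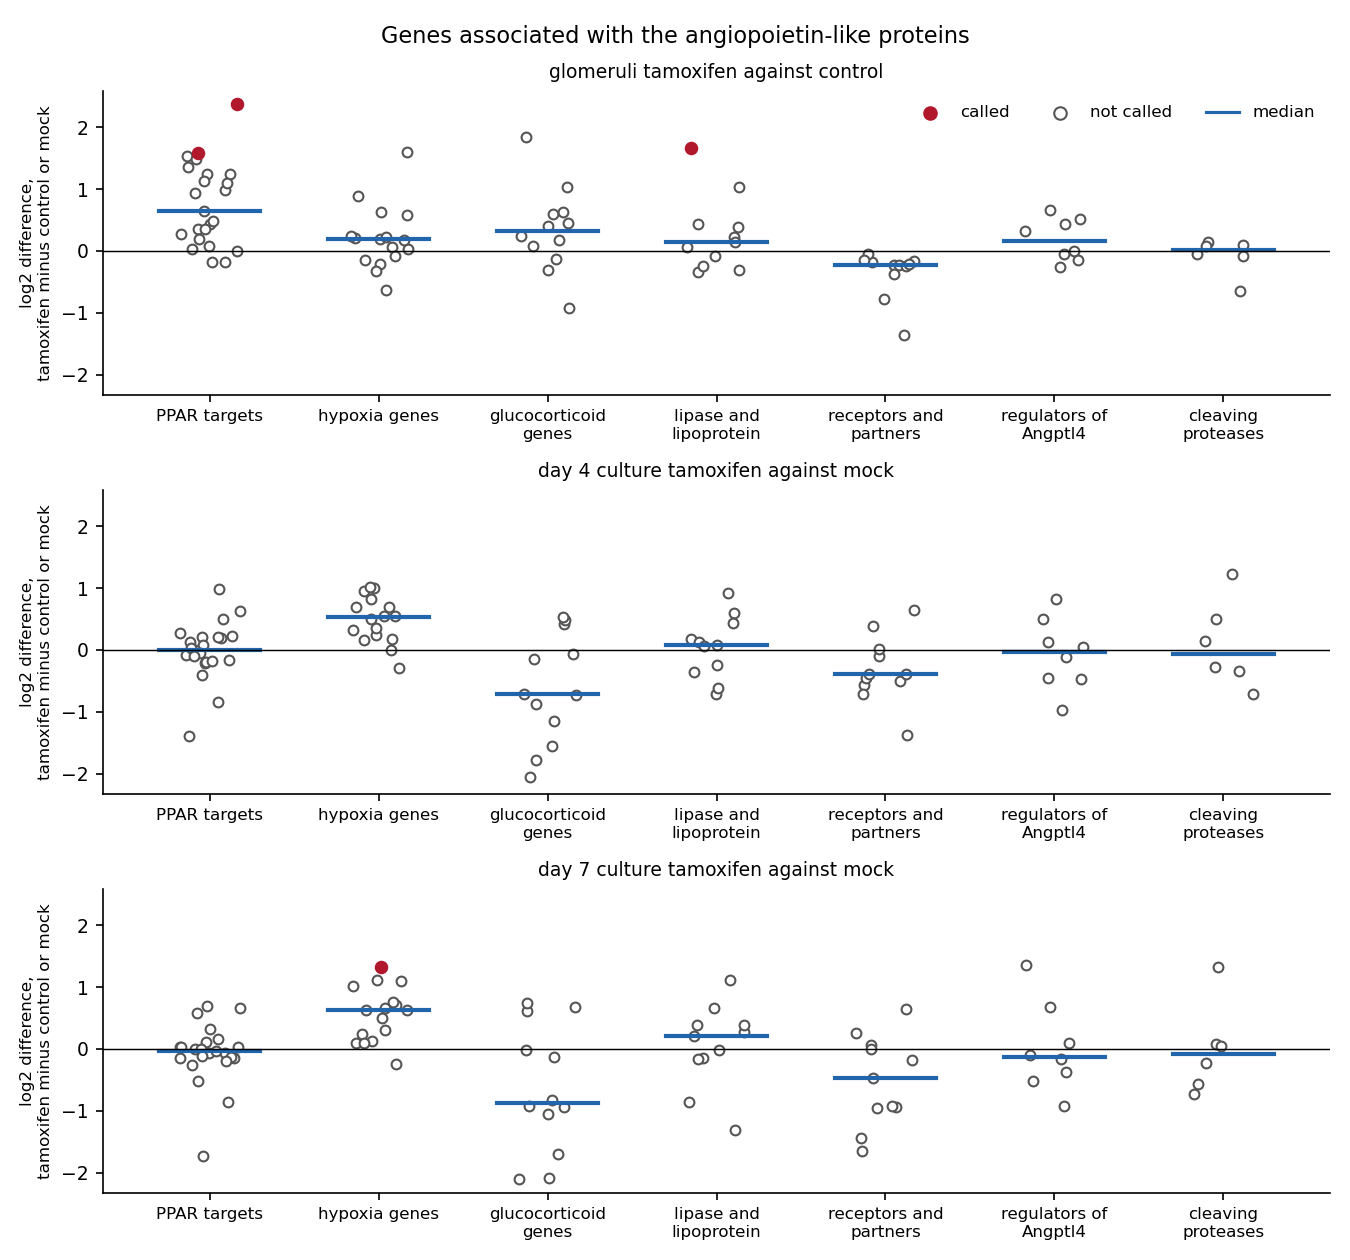
Log2 difference, tamoxifen minus control or mock, for genes associated with the angiopoietin-like proteins, in glomeruli (top), day 4 cultures (middle) and day 7 cultures (bottom). Points are genes, red where called at an adjusted p under 0.05, and blue lines are list medians. PPAR targets had a median of 0.64 in glomeruli, and hypoxia genes 0.63 in day 7 cultures.

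The angiopoietins themselves and their Tie receptors gave no call among 5 tested genes. Angpt1, the podocyte-made Tie2 ligand, differed by 0.80 in glomeruli and by -1.02 and -1.17 in day 4 and day 7 cultures. Angpt4 differed by 1.75 at day 7 (adjusted p 0.11). Of 8 tested proteins that share the fibrinogen-like domain none was called, and Fgb, the fibrinogen beta chain, differed by 2.22 in glomeruli and by -2.87 and -3.25 in day 4 and day 7 cultures. Of 11 tested sialic acid genes, read because hyposialylated ANGPTL4 has been described in podocytes of rats, none was called. None of the 4 host genes tested was called in a tamoxifen comparison, and Ralgps1, which contains Angptl2, differed by 0.52 at day 4 and 0.44 at day 7.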

How the data were processed

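RNA was dyed with Cy3 and read on Agilent 1-colour mouse arrays, 1 per sample. Spot intensity, linear and background-subtracted, comes from the deposited scanner output, made with Agilent Feature Extraction version 11.5.1.1 per the file headers. A second deposited table gives the authors' processed values as log2, with scale unstated. They correlated at 1 with log2 of the scanner signal, had column medians of -4.14 to -3.81, and served as an alternative. The main values are log2 of the processed signal minus each array's 75th percentile. Control spots and outlier flags were left out. Probes well above background on at least 2 arrays were kept, 26421 of 39429, and a gene was read from its brightest probe. Names came through RefSeq accessions, which gave 26581 probes 1 symbol and 12848 none.

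All 12 arrays entered 1 limma 3.58.1 fit (R 4.3.3) of 6 group means, with Benjamini-Hochberg adjustment over 15217 genes and calls under 0.05. The fit has 6 residual degrees of freedom, and 2 arrays a group limit the precision. On simulated data with 50 genes changed by 1, 2, 3 or 4 log2 units in glomeruli, 58%, 84%, 90% and 92% were found, with 8 false calls. For day 4 cultures 50%, 76%, 90% and 92% were found, with 9 false calls. For day 7 cultures the shares were 50%, 72%, 94% and 90%, with 14 false calls. The simulated noise was independent between arrays, so it does not cover deviations that culture replicates share. Where labels do not name separate mice or cultures, p-values measure only the spread between samples. The members and lists were chosen with earlier results of these data known. Genes were named by rule: all members, Angptl8, Foxc1 and Foxc2, up to 4 called genes of each list by size or otherwise up to 2, host genes, and the 3 genes most like each member. Replicate numbers were checked by correlating deviations from group means, which gave 0.21 between the glomerular groups and 0.395 to 0.551 among the culture groups. With 2 numbers a group and no label that pairs them, no block was used. A few genes that the rule or lists cover are not reported here.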

Additional observations from a re-analysis of the deposited data

Results flagged for a closer look

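An interaction term in the limma fit over all genes set the glomerular tamoxifen difference against that in cultures, for members chosen on these same arrays. For Angptl7 the glomerular difference minus the mean culture difference was 5.44 on the log2 scale (adjusted p 0.037), and for Angptl2 it was -1.59 (adjusted p 0.045). The Angptl7 call held without 1 of the 12 arrays in turn and the Angptl2 call without 2 of 12. With normexp neither was called, and the Angptl7 value was 2.94 (adjusted p 0.18).

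In a few cases the measured value of every treated array lay on the other side of its reference in cultures than in glomeruli. For Angptl7 the differences were -0.94 at day 4 and -1.30 at day 7, and both treated glomerular arrays were higher. Neither day 4 tamoxifen array and only 1 day 7 tamoxifen array was well above background for Angptl7, and with normexp the day 4 difference was 1.07. Angptl8 at day 7 (-0.18) was likewise lower in treated cultures and higher in treated glomeruli. None of these culture differences passed the test in the limma fit. The difference between glomeruli and each single day was not tested. Against the mean of both days it was 0.45 for Angptl8 (adjusted p 0.17), which did not pass the threshold.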

How the results depend on the processing

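The count of listed members called in glomeruli was 1, and 0 with normexp background correction or with the glomerular arrays alone (Angptl7 adjusted p 0.075 and 0.27). In the other 9 of 11 settings it stayed at 1, and leaving out single arrays gave 0 to 1. At day 4 the count was 0. It was 1 with normexp, median scaling, quantile normalization, a filter on both arrays of a group, a trended robust variance, or a replicate block in the cultures alone, an alternative chosen after seeing the data, and 0 to 1 leaving out single arrays. At day 7 the count was 1, and 0 with the culture arrays alone (Angptl2 adjusted p 0.063), and 0 to 1 leaving out single arrays. For glomerular minus culture differences it was 2, and 0 with normexp, 1 without a filter, 1 with a replicate block (Angptl2 adjusted p 0.051) and 0 to 2 leaving out single arrays. For mock cultures against glomeruli it was 1, and 2 with median scaling, 2 with the replicate block and 1 to 2 leaving out single arrays. In mock cultures against glomeruli the block called Angptl4 (adjusted p 0.0093). Apart from that call and the lost Angptl2 call above, the block over all arrays changed no call of a listed member. Leaving out an array leaves 1 in its group, which is then assumed to vary like the others. Each member has 1 probe, so averaging probes or changing the filter leaves its own values as they are. The authors' values correlated at 1 with the main ones. Agreement under these settings is therefore weak support for a member's call.

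Some directions turned. With normexp the day 4 difference of Angptl7 was 1.07 (adjusted p 0.18), against -0.94. Normexp called 5066 genes at day 4 against 32, and its fitted background mean was -257.7 on day 4 tamoxifen replicate 1. That mean was also below 0 on day 4 tamoxifen replicate 2 (-25.0) and on tamoxifen glomeruli replicate 1 (-29.5), against 12.5 to 19.0 on the 9 other arrays. Normexp used the median signal, since the files hold no mean signal. With median scaling Angptl2 in glomeruli was 0.037. Leaving out single arrays, glomerular differences ran from -0.17 to 0.15 for Angptl2 and -0.33 to 0.21 for Angptl6. Day 4 differences ran from -0.061 to 0.15 for Angptl6, -0.11 to 1.08 for Angptl4 and -0.029 to 0.18 for Angptl8, and day 7 differences from -0.066 to 0.10 for Angptl6. Glomerular minus culture differences ran from -0.085 to 1.45 for Angptl4 and -0.36 to 0.18 for Angptl6. The cause was not tested.

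Counts over all genes moved more. Leaving out single arrays gave 89 to 495 calls in glomeruli against 402, 7 to 79 at day 4 against 32 and 9 to 238 at day 7 against 149. The fit on a tissue's own arrays called 0, 18 and 39, and the block in cultures alone called 574 in glomeruli and 500 at day 7. The called PPAR targets in glomeruli were 2, and 0 with normexp, without a filter or with the glomerular arrays alone, 1 with probes of a gene averaged, and 4 with the replicate block. Of 759 list counts over all settings, 694 were within 1.5 times the reported count. Most of the reported counts were 0, and 0 against 0 enters as agreement. The share therefore says little about the few counts above 0. A slide block adds nothing to the fit of group means, since each group lies on 1 slide, and was not run. Signals near background limit Angptl1, and Angptl7 in cultures.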
